A study of Gallus gallus with 16 samples.

Results

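The LPS response of cells that already had PB1 was taken from 8 RNA-seq libraries, 4 of the LPS + PB1 group and 4 of the PB1 group. The members were all transcripts with a mean of at least 10 RPM (TMM-normalized reads, scaled to a common library total) in either group, which gave 4145 of the 6492 transcripts in the table. Of these, 3809 reached the limit in both groups, 202 in LPS + PB1 only and 134 in PB1 only. A gene symbol could be given to 1194 members, and the other 2951 carry an accession alone. At the limit, SHISA2 (10.003 RPM in LPS + PB1) and XR_006936724.1 (10.02 in PB1) were the last inside, and ARC (9.98 in PB1) and XM_040671151.2 (9.96 in PB1) the first outside.

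The cells were HD11, a single transformed chicken line described as macrophage-like, so all 8 libraries share 1 genetic background and replicates are not separate animals. PB1 is procyanidin B1, a plant flavan-3-ol dimer, given at 100 μg/mL, and LPS is lipopolysaccharide of Gram-negative bacteria, given at 100 ng/mL. By the study's methods PB1 was present for 12 h before LPS and LPS for 12 h. The sample labels give 6 h of LPS and list 4 samples per group where the methods speak of 3, and their culture protocol, which covers every group, also places 100 μM of a compound called SeMC in the medium. The control of the comparison is therefore PB1-treated cells without LPS. Libraries of cells with LPS alone and of untreated cells (CTR, PBS), 4 of each, served to set the response beside that of cells without PB1.

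LPS is sensed on macrophages by a Toll-like receptor complex, which activates the NF-κB and MAP kinase pathways and, through these, cytokine, chemokine and interferon genes. Regulators that the pathway induces, such as the IκB proteins and dual-specificity phosphatases, then limit the response. Procyanidins are polyphenols with radical-scavenging activity, and the antioxidant enzymes driven by NRF2 are among the genes usually examined after them. The comparison asks which transcripts LPS changes once PB1 is in place.

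The 8 libraries held 4173989 to 4414942 reads, and the 10 highest transcripts took 14.2% to 18.0% of the values. Libraries of LPS + PB1 fell into 2 pairs. The chi-square per degree of freedom was 3.83 between replicates 1 and 2 and 7.07 between replicates 3 and 4, against 62.7 to 67.0 across the pairs. In PB1 it was 1.52 to 12.8 over all pairs of libraries. Libraries with LPS alone and of CTR showed the same split. It was 2.87 and 2.92 within the pairs and 37.1 to 39.8 across with LPS alone. In CTR it was 1.18 and 4.91 within and 20.7 to 23.7 across. The means of the first pair (replicates 1 and 2) and of the second pair (replicates 3 and 4) differed by more than 1.5-fold in 617 members (14.9%) in LPS + PB1 and in 56 (1.35%) in PB1. They did so in 410 (9.89%) with LPS alone and in 199 (4.80%) in CTR. The labels do not say what the pairs are, and nothing in the sources says that replicates came from separate cultures, so that p-values measure the spread between these libraries, which may be technical. Results are therefore also given with the mean of each pair counted as 1 sample, and within each pair. The latter sets libraries of the 2 groups together by replicate number alone, although the numbers were not found to pair the libraries, and so serves as a description.

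The defining genes of macrophages were scarce. Of 14 macrophage markers looked for, 2 were matched by symbol. CYBB, the phagocyte oxidase subunit, had no read in any library. Markers that were not matched could still be among the predicted transcripts that carry no symbol. All 4 fibroblast markers that were matched (COL1A2, COL3A1, DCN and LUM) were abundant, with a summed level of 33070 to 51575 RPM in LPS + PB1 and 23262 to 24236 in PB1. In CTR that sum was 52690 to 63154. Single markers of lymphoid, endothelial, epithelial and neural cells stayed at or below 4.78 RPM. Muscle markers summed to at most 9.13. The erythroid markers matched were uneven between libraries, with a sum of 0 to 307 RPM in LPS + PB1 and 0.227 to 129 in PB1. That sum reached 75.9 with LPS alone and 1.53 in CTR. The named transcripts thus hold little of a macrophage profile, and the cells are called by their label, HD11. The part of fibroblast-type RNA in the matrix results was not tested. In bulk RNA, fewer cells of a kind and less RNA per cell cannot be told apart.

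LPS changed members in both directions in PB1-treated cells, and in nearly equal number. Calls needed a limma adjusted p of 0.05 or less together with a 1.5-fold difference, which 1148 members (27.7%) met, of which 571 rose and 577 fell. Over all 4512 transcripts tested, 29.4% were called, 14.5% higher and 14.9% lower. Among the 3809 members over the limit in both groups the share was 22.8% (400 higher and 467 lower). It was 84.7% and 82.1% in the 202 and 134 members over the limit in LPS + PB1 or PB1 only, which had to differ to be members. Median changes were 2.29-fold among the called members that rose and 2.10-fold among those that fell. A change of at least 4-fold was found in 150 members that rose and 106 that fell, and one of at least 16-fold in 56 and 26. These medians and counts include members over the limit in 1 group only, so they were partly set by the membership rule. Over all such members, called or not, the median log2 change was 2.23 for LPS + PB1 only and -1.64 for PB1 only. The 4 LPS + PB1 libraries lay wholly above or below the 4 PB1 libraries in 1949 members (47.0%, against 46.9% of all tested) and in 1111 of the 1148 called. Of the called members, 938 were also called on the means of the pairs, 861 passed 1.5-fold in the same direction in both pairs and 974 were called with each of the 8 libraries left out in turn. The median log2 change over all members was -0.0036. Of members with a symbol 24.4% were called (158 higher and 133 lower), of those without 29.0% and of predicted noncoding transcripts 27.6%, shares for which no test was made.

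The members with the largest rises, taken among named transcripts whose libraries did not overlap and whose higher group reached 50 RPM, were HOXC10, ID3, ANKRD1, UCHL1, SOX9, C3, RHOJ and CCN2. All but CCN2 reached 10 RPM in LPS + PB1 and not in PB1, and so had to differ. Their separation and adjusted p are thus given as a description. HOXC10 (chr34:858022-862788), a homeobox factor of the posterior body axis, was at 152, 156, 141 and 149 RPM in the 4 LPS + PB1 libraries. In PB1 it had 1 read in all 4 libraries against 2598 in LPS + PB1, a ratio of 2597 with an exact 95% counting interval of 466 to 102603. Its fitted log2 change was 9.29 ± 0.28 (SE, limma adjusted p = 4.9e-09). The transcript was thus present in every LPS + PB1 library and close to absent from every PB1 library.

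ID3 (chr23:2577964-2579597), a helix-loop-helix protein that blocks the DNA binding of its partners and is induced by BMP signals, had 499, 450, 513 and 453 RPM after LPS. In PB1 it had 5.57, 5.90, 5.80 and 6.95. The log2 change was 6.26 ± 0.10 (SE, limma adjusted p = 1.0e-10), 6.32 in the first pair and 6.199 in the second, so that both pairs gave nearly the same rise. CCN2 (chr3:56836500-56839471), a matricellular protein also called connective tissue growth factor, rose from 409, 444, 480 and 530 RPM in PB1 to 8155, 7577, 7744 and 7049. Its log2 change was 4.04 ± 0.10 (SE, limma adjusted p = 1.2e-09), with 4.20 and 3.87 in the pairs. ANKRD1, an ankyrin-repeat protein of stretched muscle and a known target of YAP, went from 1.39 to 2.90 RPM in PB1 to 78.002 to 104 (log2 change 5.37 ± 0.21 SE). In all 3 genes every LPS + PB1 library lay more than 10-fold above every PB1 library, a gap favoured by the way they were chosen.

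UCHL1, a deubiquitinating enzyme best known from neurons, was at 325 to 389 RPM in LPS + PB1 and 7.94 to 11.02 in PB1, a log2 change of 5.29 ± 0.12 (SE). SOX9, the transcription factor of cartilage formation, had 74.7, 66.5, 118 and 95.7 RPM in LPS + PB1 against 2.67, 2.27, 4.18 and 2.64 in PB1 (log2 change 4.83 ± 0.23 SE). Complement C3 (chr30:138499-165753), the central component of the complement cascade, had 51.1, 48.2, 192 and 157 in LPS + PB1 and 2.90, 3.18, 2.55 and 5.75 in PB1 (log2 change 4.69 ± 0.46 SE). C3 was thus higher in replicates 3 and 4, with log2 changes of 5.42 there and 3.95 in replicates 1 and 2. RHOJ, a small GTPase of endothelial cells, showed the reverse order, with 138 and 135 in the first pair against 64.8 and 62.7 in the second, with 4.18 to 5.51 in PB1 (log2 change 4.30 ± 0.27 SE). The limma adjusted p of these 4 genes was between 9.9e-10 and 1.7e-05.

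The largest falls by the same rule were those of APCDD1, ST8SIA2, CLEC3B and CTSC, followed by AQP1, NES, ACE and ITGB3. Of these, APCDD1, ST8SIA2 and ITGB3 reached 10 RPM in PB1 and not in LPS + PB1, and so had to differ. APCDD1 (chr2:97929792-97960654), a membrane inhibitor of Wnt signalling, had 736, 701, 697 and 772 RPM in PB1 and 8.39, 7.21, 2.27 and 1.72 after LPS, a log2 change of -7.44 ± 0.43 (SE, limma adjusted p = 3.7e-07). ST8SIA2 (chr10:14513606-14539806), which builds polysialic acid on the neural adhesion molecule NCAM, fell from 68.7 to 82.2 in PB1 to 0.247 to 0.931 (log2 change -6.75 ± 0.26 SE). ST8SIA2 was thus close to the floor of 3 reads in the LPS + PB1 libraries, whereas APCDD1 stayed above it and was lower in the second pair than in the first.

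CLEC3B, the plasminogen-binding protein tetranectin, fell from 1678, 1753, 1784 and 2176 RPM to 84.9, 81.0, 70.7 and 61.6, a log2 change of -4.63 ± 0.12 (SE). CTSC (chr1:188150498-188166515), the lysosomal peptidase cathepsin C that activates serine proteases of immune granules, fell from 1059, 1064, 1190 and 1156 to 60.2, 65.2, 42.8 and 45.3 (log2 change -4.41 ± 0.13 SE). The falls held in both pairs, at -4.37 and -4.90 for CLEC3B and at -4.08 and -4.73 for CTSC. AQP1, a water channel, was at 127, 133, 193 and 223 in PB1 and 17.8, 17.9, 6.82 and 6.47 in LPS + PB1 (log2 change -3.89 ± 0.36 SE). NES (nestin, an intermediate filament of progenitor cells) was at 311 to 329 and 16.1 to 30.8, ACE (angiotensin-converting enzyme) at 265 to 304 and 15.7 to 31.8, and ITGB3 (integrin β3) at 42.7 to 58.7 and 7.33 to 11.3. Their log2 changes were -3.81, -3.61 and -2.43. The libraries of the 2 groups were apart by more than 2-fold for each of these genes, which were chosen for lack of overlap.

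**Figure D1:**
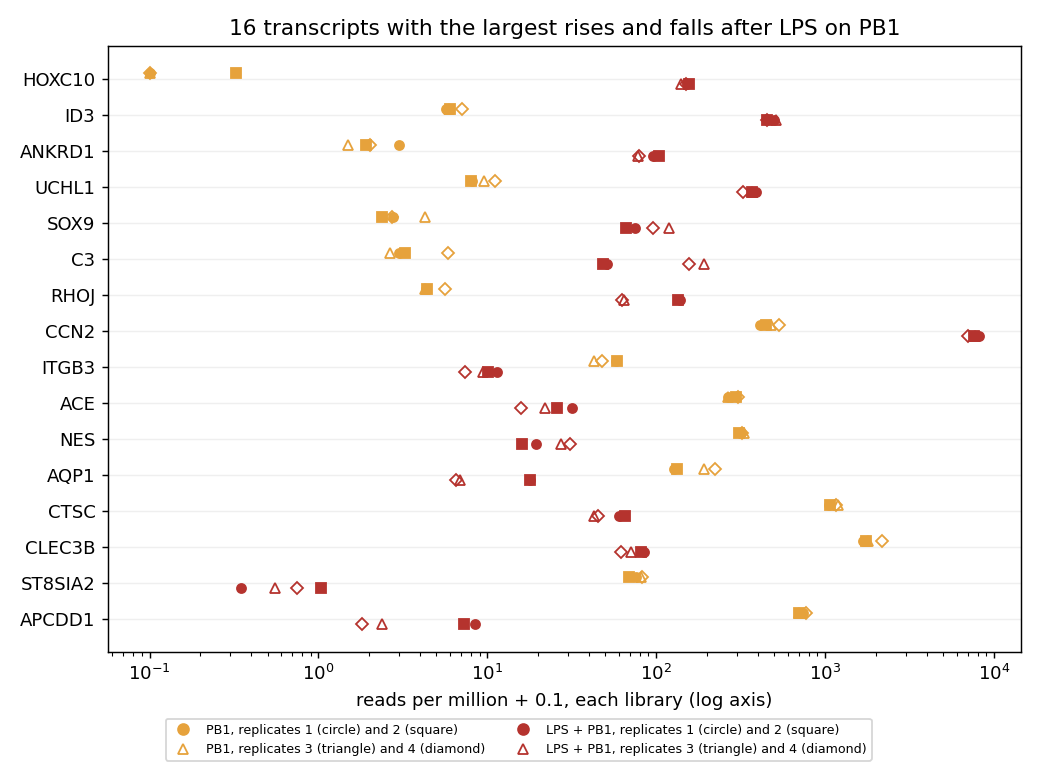
RPM plus 0.1 (log axis) in each PB1 and LPS + PB1 library for the 8 named members with the largest rises and the 8 with the largest falls, by replicate. The groups do not overlap in any of the 16, by the way they were chosen. C3 and RHOJ show replicates 1 and 2 apart from replicates 3 and 4.

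Among members without a symbol, 2 rises and 2 falls are given by accession. XM_046912694.1 had 91.3, 98.2, 86.6 and 91.4 RPM in LPS + PB1 and no read in any PB1 library, which makes it at least 133-fold higher against a floor of 3 reads per library. XM_040670282.2 had 139 to 216 after LPS and 3 reads over the 4 PB1 libraries, a ratio of 1007 with an exact 95% counting interval of 344 to 4888. In the other direction, XM_040686566.2 fell from 1542, 1552, 1163 and 1260 in PB1 to 1.23, 2.09, 1.36 and 2.16 (log2 change -9.51 ± 0.18 SE, limma adjusted p = 3.1e-10). XM_046928513.1 had 68.2 to 84.3 in PB1 and 3 reads over the 4 LPS + PB1 libraries. These transcripts reached 10 RPM in only 1 of the groups, and so had to differ. All told, 4 called members had no read in any PB1 library and 1 had none in any LPS + PB1 library.

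Among transcripts with a symbol, the largest gains in RPM were those of COL1A2, ACTB, SPARC, CCN2 and TGFBI. COL1A2, a chain of type I collagen, had 42793, 39744, 27234 and 26033 in LPS + PB1 and 15833 to 17140 in PB1 (log2 change 1.02 ± 0.19 SE, limma adjusted p = 0.0016). SPARC, a collagen-binding glycoprotein, rose from 3751 to 4395 to 9582 to 14171 (log2 change 1.52 ± 0.15 SE). Both stood higher in replicates 1 and 2, with log2 changes of 1.36 and 1.86 there against 0.68 and 1.18 in replicates 3 and 4. In CTR COL1A2 was at 43463 and SPARC at 11218 on average, against 33951 and 11876 in LPS + PB1.

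TGFBI, a TGF-β-induced matrix protein, was at 18373 and 17037 in replicates 1 and 2 of LPS + PB1 but 6005 and 5564 in replicates 3 and 4, against 4617 to 5249 in PB1. Its log2 change of 1.07 ± 0.38 (SE, limma adjusted p = 0.038) was 1.92 in the first pair and 0.21 in the second. The adjusted p rose to at most 0.086 when a library was left out, and the call was lost without LPS + PB1 replicate 1 or 2 (log2 changes of 0.78 and 0.82) and without any 1 of the PB1 libraries (1.05 to 1.11). ACTB (β-actin), whose reads could be shared with near-identical actin copies, had 23464, 20779, 16711 and 13247 in LPS + PB1 and 8725 to 11327 in PB1 (log2 change 0.92 ± 0.19 SE, limma adjusted p = 0.0027). On the means of the pairs COL1A2, ACTB and TGFBI were not called, with limma adjusted p = 0.089, 0.085 and 0.19. In CTR TGFBI was at 15828 and ACTB at 15503 on average, against 11745 and 18550 in LPS + PB1.

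Among transcripts with a symbol, losses in RPM were largest for COL6A2, IGFBP4, EEF1A1, LOX and DCN. COL6A2, a chain of type VI collagen, fell from 15237 to 17072 RPM in PB1 to 6707 to 9340 (log2 change -0.98 ± 0.14 SE). IGFBP4, which binds insulin-like growth factors, fell from 7383, 7355, 6538 and 7533 to 2035, 1977, 2837 and 2546 (log2 change -1.63 ± 0.13 SE). DCN (decorin, a small proteoglycan that binds collagen and TGF-β) fell from 4262 to 4847 to 1641 to 2087 (log2 change -1.26 ± 0.10 SE). These 3 falls were also called on the means of the pairs. LOX (lysyl oxidase, the collagen cross-linking enzyme) and EEF1A1 (the translation elongation factor) fell by 0.76 and 0.60 on the log2 scale and were not called there (limma adjusted p = 0.078 and 0.13). EEF1A1 was also not called without LPS + PB1 replicate 4 or PB1 replicate 2, at log2 changes of -0.57 in both.

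Matrix genes as a group were the most often called of the larger lists. Of 17 members of a list of extracellular matrix genes and their remodelling enzymes, 9 rose and 5 fell, 82.4% against 29.4% of all transcripts tested, and the median log2 change was 0.67 against -0.01 over all tested. On the means of the pairs 6 of the 9 and 4 of the 5 were called. Gene lists here and below were chosen with earlier results of these data known, so their called shares are a description alone. TIMP3, an inhibitor of matrix metalloproteinases, had 5448, 5645, 9350 and 9454 RPM in LPS + PB1 and 864, 858, 843 and 862 in PB1, a log2 change of 3.08 ± 0.19 (SE, limma adjusted p = 5.2e-07). It was higher in replicates 3 and 4, the reverse of the collagens. MMP10 (stromelysin 2) rose from 9.34 to 19.3 to 53.7 to 67.9 (log2 change 1.98 ± 0.21 SE). COL3A1, a fibrillar collagen, rose from 1718 to 2065 to 4800 to 6278 (log2 change 1.54 ± 0.12 SE). Without PB1, 2 of the 17 list members were called higher after LPS and 4 lower, with a median log2 change of 0.02. Mean levels of COL3A1 (7068 RPM) and MMP10 (286) in CTR lay above those in LPS + PB1 (5546 and 59.8). Those of TIMP3 (1404) and CCN2 (3939) in CTR lay below (7474 and 7631 in LPS + PB1).

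LUM (lumican), a proteoglycan related to decorin, fell from 1059, 1037, 908 and 803 to 545, 581, 289 and 343 (log2 change -1.17 ± 0.21 SE). CTSK (cathepsin K), a collagen-degrading protease, fell from 546 to 616 to 97.3 to 165 (log2 change -2.18 ± 0.16 SE). CCN3, a relative of CCN2, rose by 0.69 ± 0.10 (SE) on the log2 scale, and WISP1 (CCN4), named here after its values were seen, had 72.5, 77.0, 43.7 and 44.0 in LPS + PB1 and 3.18 to 9.10 in PB1, a log2 change of 3.21 ± 0.33 (SE). CYR61 (CCN1) was at 1959.8 and 2745 on average in PB1 and LPS + PB1 and was not called (log2 change 0.48). WISP1 reached 10 RPM in LPS + PB1 and not in PB1, and so had to differ. CCN2 and CCN3 of this family thus rose, WISP1 is given as a description alone, and CYR61 was not called.

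**Figure D2:**
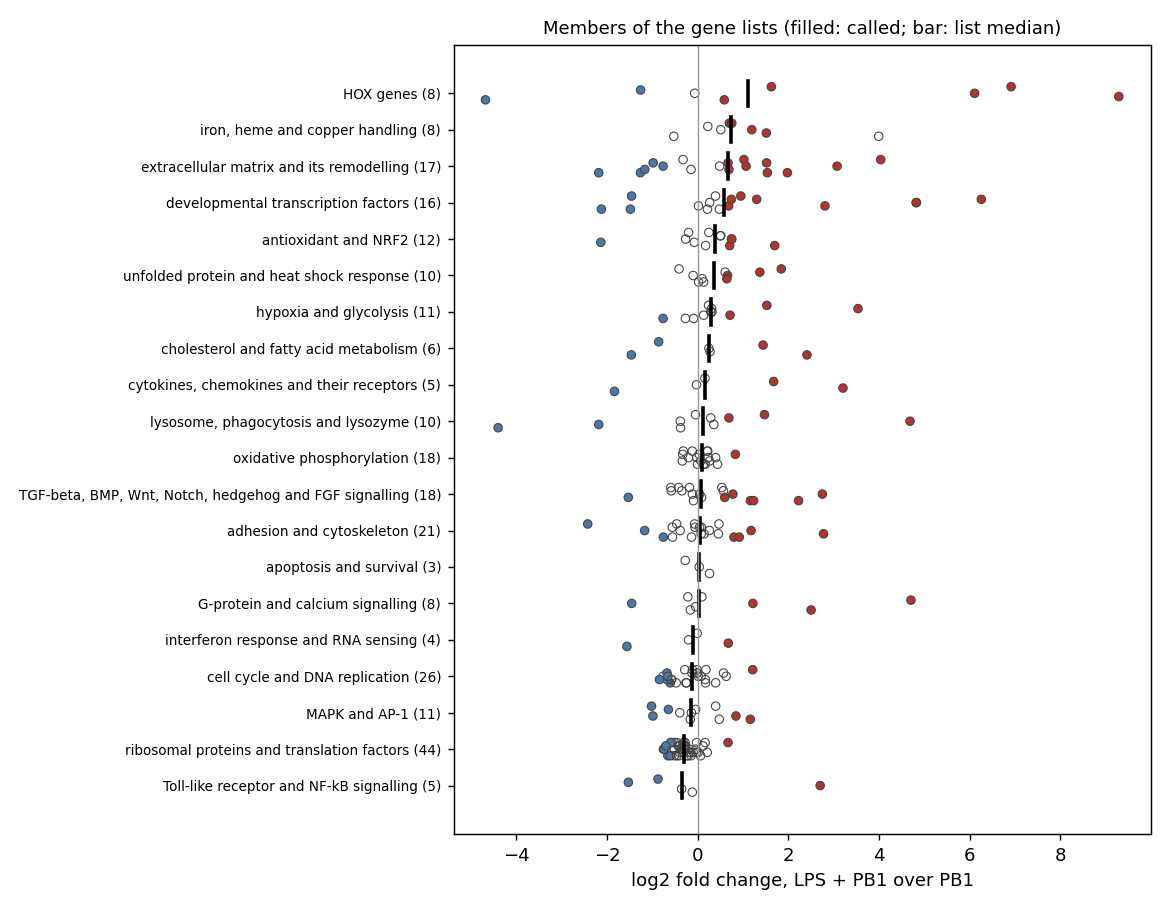
Log2 fold change of LPS + PB1 over PB1 for every member transcript of 20 gene lists, with the number of members in brackets. Filled points were called (red higher, blue lower), open points were not, and the bar is the list median. HOX genes spread from -4.68 to 9.29, whereas ribosomal and oxidative phosphorylation genes lie between -0.76 and 0.83.

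HOX genes, which set position along the body axis and are usually kept stably on or off in a cell line, differed widely. Of 8 HOX members, 5 rose and 2 fell (87.5%, against 29.4% of all tested). Of these 8, 6 reached 10 RPM in only 1 of the groups and so had to differ, and of the 2 over the limit in both groups HOXD4 was called and HOXA11 was not. The HOX count is therefore given as a description alone. HOXB8 (chr27:3402859-3404508) had 24.2, 26.3, 19.8 and 23.5 RPM in LPS + PB1 and no read in any PB1 library, at least 33.9-fold higher against the floor of 3 reads per library. HOXB5 (chr27:3412953-3428530), also in the HOXB cluster, had 14.3, 14.7, 18.0 and 18.5 and a single read over the PB1 libraries, a ratio of 286 with an exact 95% counting interval of 50.9 to 11330. HOXC9, beside HOXC10 in the HOXC cluster, rose from 8.62 to 11.8 to 22.5 to 40.7 (log2 change 1.62 ± 0.20 SE). HOXC10, HOXB8 and HOXB5 thus had 0 or 1 read over the 4 PB1 libraries.

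Of the 3 HOXA members, 2 fell. HOXA13 (chr2:32582487-32585457), the most posterior HOXA gene, had 18.0, 17.9, 12.3 and 10.8 RPM in PB1 and 0.247 to 0.698 in LPS + PB1 (log2 change -4.68 ± 0.31 SE, limma adjusted p = 1.1e-06). HOXA3 fell from 9.75 to 11.7 to 3.02 to 6.66 (log2 change -1.26 ± 0.23 SE), while HOXA11 had 29.5 to 34.1 in PB1 and 24.3 to 39.1 in LPS + PB1 and was not called (log2 change -0.07). HOXD4 was just over the fold limit (log2 change 0.59 ± 0.19 SE, limma adjusted p = 0.024) and its adjusted p reached 0.063 when a library was left out. The levels in the other 2 groups did not follow a single order. HOXB8 was at 21.6 ± 3.85 (SD, n = 4) with LPS alone and 2.25 ± 0.35 in CTR. HOXC10 was at 109 ± 13.1 and 4.57 ± 0.45. HOXB5, in contrast, was at 17.9 ± 2.58 with LPS alone and 22.5 ± 5.14 in CTR. The low HOXB5 level was therefore found in the PB1 group only, whereas HOXB8 and HOXC10 were high in both groups with LPS.

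**Figure D3:**
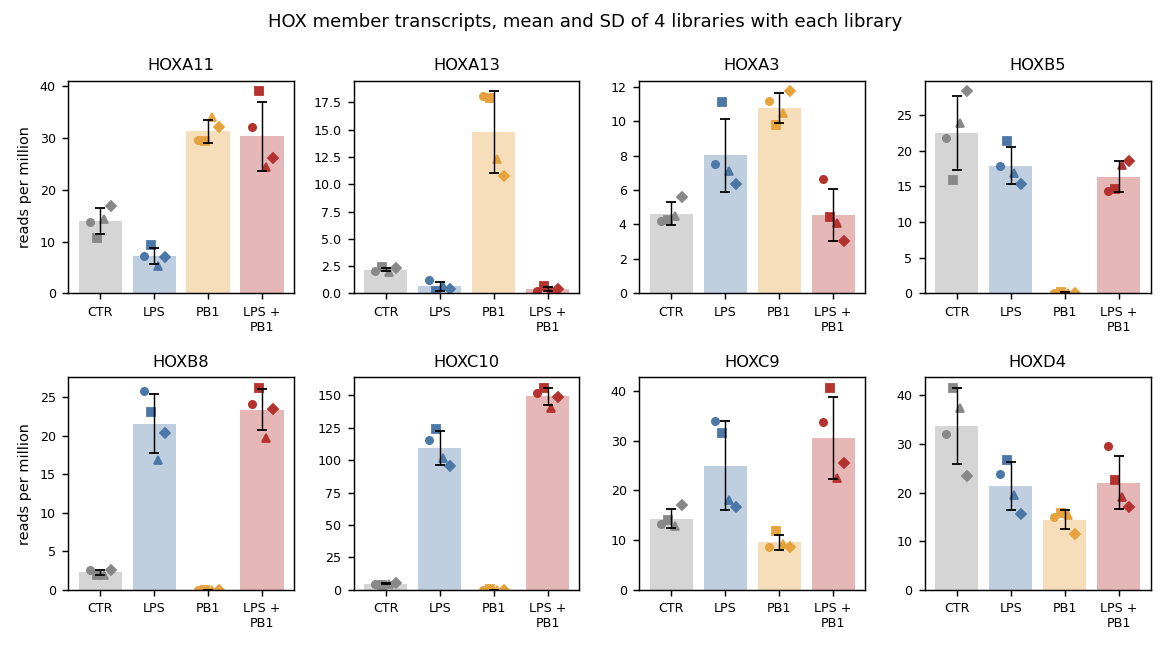
RPM of the 8 HOX member transcripts in the 4 groups, with bars for the mean of 4 libraries, error bars for the SD and a point for each library. HOXB8 and HOXC10 are high in both groups given LPS, HOXA13 is high in PB1 only, and HOXB5 is low in PB1 only.

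Of 16 developmental transcription factors, 8 rose and 3 fell (68.8%, against 29.4% of all tested), and 6 and 3 of these were called on the means of the pairs. Of the 13 that reached 10 RPM in both groups 5 rose and 3 fell, and the other 3, ID3, SOX9 and DLX3, were members through LPS + PB1 alone. Besides ID3 and SOX9, DLX3, a homeobox factor of skin and bone, rose from 0.223 to 0.928 RPM to 14.7 to 21.1 (log2 change 4.82 ± 0.35 SE). SOX4, a factor of progenitor cells, rose from 9.36 to 11.02 to 46.6, 51.9, 90.7 and 128 (log2 change 2.81 ± 0.28 SE). MEIS2, a partner of HOX proteins, had 327 and 304 in the first pair against 142 and 128 in the second, with 80.5 to 87.6 in PB1 (log2 change 1.30 ± 0.28 SE). The 3 that fell were FOXL2, the forkhead factor of the ovary, from 55.3 to 68.0 to 11.1 to 16.8, ZIC1, a zinc-finger factor of neural tissue, from 30.8 to 41.2 to 10.7 to 13.6, and TBX18, a T-box factor of mesenchyme, from 161 to 186 to 59.6 to 66.4. Their log2 changes were -2.13, -1.49 and -1.46.

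Of 18 members that carry or restrain TGF-β, BMP, Wnt, Notch, hedgehog and FGF signals, 6 rose and 1 fell, near the background share at 38.9%. Those that rose included inhibitors and a receptor. BAMBI, a decoy receptor for TGF-β and BMP, rose from 4.87 to 9.14 RPM to 39.5 to 49.8 (log2 change 2.75 ± 0.19 SE). NOG (noggin, a BMP antagonist) rose from 2.23 to 5.11 to 11.8 to 20.04 (log2 change 2.23 ± 0.27 SE), and SFRP1, a secreted Wnt antagonist, from 840 to 1012 to 1963 to 2181 (log2 change 1.16 ± 0.09 SE). FSTL1, a follistatin-like glycoprotein, rose by 0.78 ± 0.10 (SE). The receptor ACVR2A rose from 14.6 to 19.3 to 27.3 to 61.9 (log2 change 1.23 ± 0.26 SE). BAMBI and NOG reached 10 RPM in LPS + PB1 and not in PB1, and so had to differ. FGF9, a fibroblast growth factor, fell from 51.5, 51.7, 38.3 and 41.7 to 31.6, 23.04, 7.73 and 10.3 (log2 change -1.53 ± 0.39 SE). On the means of the pairs 4 of the 6 rises and not FGF9 were called.

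The pathway that LPS is known for was represented by few named transcripts, and their direction was mixed. Of 51 genes listed for Toll-like receptor and NF-κB signalling 5 were members, of which 1 rose and 2 fell (60%, against 29.4% of all tested). However, only 2 of the 5 reached 10 RPM in both groups, and neither of these was called. NFKBIZ (chr1:85658140-85674660), an atypical IκB protein that LPS induces in mammalian macrophages, had 29.4, 25.8, 25.9 and 23.1 RPM in LPS + PB1 and 2.01, 3.86, 5.34 and 5.03 in PB1 (log2 change 2.70 ± 0.27 SE, limma adjusted p = 1.8e-05). IRAK2, a kinase of the Toll-like receptor complex, fell from 17.2 to 21.2 to 5.92 to 8.19 (log2 change -1.53 ± 0.15 SE), and TLR3, the receptor for double-stranded RNA, from 9.80 to 13.7 to 6.03 to 6.52 (log2 change -0.88 ± 0.15 SE). NFKBIA, the classical inhibitor IκBα, was at 55.3 ± 5.18 (SD, n = 4) in PB1 and 50.9 ± 5.21 in LPS + PB1 and was not called (log2 change -0.12 ± 0.11 SE, limma adjusted p = 0.39).

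Interferon and RNA-sensing genes had 4 members, of which 1 rose and 1 fell (50%, against 29.4% of all tested). The one that fell, IFIH1, reached 10 RPM in PB1 and not in LPS + PB1, and so had to differ. IFIH1 (MDA5, a sensor of viral RNA) fell from 11.4, 14.5, 10.4 and 10.8 RPM to 4.19, 2.79, 3.87 and 4.74, a log2 change of -1.56 ± 0.20 (SE, limma adjusted p = 0.00011). TMEM173 (STING, an adaptor of DNA sensing) rose from 109 to 148 to 176 to 207 (log2 change 0.67 ± 0.11 SE). IFIT5, an interferon-induced RNA-binding protein, was at 51.5 and 51.4 on average in PB1 and LPS + PB1 (log2 change -0.01). The cytokine list had 5 members, of which 2 rose and 1 fell (60%, against 29.4% of all tested). Both that rose, CXCL14 and TGFB3, reached 10 RPM in LPS + PB1 and not in PB1, and so had to differ. IL6, the inflammatory cytokine, had 297 to 323 in PB1 and 310 to 400 in LPS + PB1 and was not called (log2 change 0.16 ± 0.09 SE, limma adjusted p = 0.17). CXCL14, a constitutive chemokine, rose from 0.928 to 2.01 to 7.89, 9.07, 26.6 and 22.8 (log2 change 3.20 ± 0.41 SE). The decoy receptor TNFRSF11B (osteoprotegerin) fell from 1929 to 2140 to 1044 and 1101 in replicates 1 and 2 and to 281 and 318 in replicates 3 and 4 (log2 change -1.84 ± 0.42 SE), and TGFB3, a TGF-β ligand, rose by 1.68 ± 0.39 (SE). On the means of the pairs only CXCL14 of these 3 was called.

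MAP kinase and AP-1 genes were called in both directions, 2 higher and 3 lower of 11 members (45.5%, against 29.4% of all tested), and the calls did not change on the means of the pairs. JUN (chr8:26047724-26049692), an AP-1 subunit, fell from 764, 732, 755 and 787 RPM to 339, 319, 438 and 415 (log2 change -1.02 ± 0.11 SE, limma adjusted p = 2.5e-05). FOS, its usual partner, rose from 8.84 to 14.4 to 23.7 to 30.2 (log2 change 1.16 ± 0.17 SE). DUSP1, a phosphatase that shuts off MAP kinases, rose from 189 to 218 to 299 to 461 (log2 change 0.84 ± 0.14 SE), while SPRY2, an inhibitor of receptor tyrosine kinase signals, and MAP2K5, the kinase upstream of ERK5, fell by 0.99 and 0.65 on the log2 scale. The 2 subunits of AP-1 thus moved in opposite directions, each without overlap between groups.

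Antioxidant genes were called in 5 of 12 members (41.7%, against 29.4% of all tested), 4 higher and 1 lower, with a median log2 change of 0.37. TXNRD1 (thioredoxin reductase, an NRF2 target) rose from 871, 892, 805 and 771 RPM to 2908, 2913, 2509 and 2529 (log2 change 1.70 ± 0.09 SE, limma adjusted p = 1.9e-07). HMOX1 (heme oxygenase 1), another NRF2 target, had 228, 237, 219 and 236 in PB1 and 255, 290, 553 and 551 in LPS + PB1, so that its log2 change of 0.75 ± 0.24 (SE) was 0.22 in the first pair and 1.28 in the second. SELENOP1, a plasma selenium carrier, fell from 47.4 to 67.7 to 6.41, 9.54, 17.5 and 25.2 (log2 change -2.14 ± 0.36 SE). NFE2L2, which encodes NRF2 itself, was at 274 ± 8.83 (SD, n = 4) and 312 ± 46.1 and was not called (log2 change 0.17 ± 0.10 SE, limma adjusted p = 0.19). HMOX1 and GSTZ1 were lost on the means of the pairs, leaving TXNRD1, TALDO1 and SELENOP1.

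Genes of hypoxia and glycolysis were called in 4 of 11 members (36.4%, near the 29.4% of all tested). Of the 4, BHLHE40 reached 10 RPM in LPS + PB1 and not in PB1, and so had to differ. BHLHE40, a basic helix-loop-helix repressor induced by hypoxia, rose from 5.13 to 9.52 RPM to 64.7 to 101 (log2 change 3.54 ± 0.23 SE), and EPAS1 (HIF2A) from 489 to 549 to 1329 to 1671 (log2 change 1.52 ± 0.09 SE). HIF1A was at 997, 949, 1015 and 964 in PB1 and 1424, 1303, 1034 and 1071 in LPS + PB1. Its log2 change of 0.29 ± 0.11 (SE, limma adjusted p = 0.049) stayed under the fold limit and was 0.49 in the first pair and 0.09 in the second. PGK2 (a glycolytic phosphoglycerate kinase, whose reads may be shared with a related copy) rose by 0.71 ± 0.18 (SE), and LOX fell, and neither was called on the means of the pairs (limma adjusted p = 0.099 and 0.078). Both HIF alpha subunits were therefore expressed, and EPAS1 alone was called.

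Lipid genes were few, with 2 higher and 2 lower of 6 members (66.7%, against 29.4% of all tested). Of the 4 that reached 10 RPM in both groups 1 rose and 1 fell. PPARG and ACADS reached it in 1 group only, and so had to differ. SCD, the desaturase that makes monounsaturated fatty acids, rose from 31.4, 37.2, 47.8 and 47.4 RPM to 199, 208, 215 and 243 (log2 change 2.41 ± 0.14 SE), and PPARG, a nuclear receptor of fat storage, from 4.41 to 7.94 to 14.4 to 17.2 (log2 change 1.44 ± 0.19 SE). ACADS, an enzyme of fatty acid oxidation, fell by 1.46 on the log2 scale. Among 10 members of the unfolded protein and heat shock list, 4 rose and none fell (40%, against 29.4% of all tested), with a median log2 change of 0.37. HYOU1, a chaperone of the endoplasmic reticulum, rose from 111 to 142 to 298 to 355 (log2 change 1.37 ± 0.10 SE), and HSPA2, an HSP70 protein, from 56.6 to 74.98 to 202 to 252 (log2 change 1.84 ± 0.11 SE). HSPA9, the mitochondrial HSP70, and P4HB, a protein disulphide isomerase, rose by 0.66 and 0.64. Of the 4, P4HB was not called on the means of the pairs (limma adjusted p = 0.057).

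Iron and copper handling genes were called in 4 of 8 members (50%, against 29.4% of all tested), all higher, and 2 of these were called on the means of the pairs, where MT3 and HMOX1 were lost. Of the 7 that reached 10 RPM in both groups 3 were called. SLC40A1 reached it in LPS + PB1 and not in PB1, and so had to differ. SLC40A1 (ferroportin, the iron exporter) rose from 5.75 to 6.91 RPM to 12.1 to 18.7 (log2 change 1.19 ± 0.17 SE) and HEBP1, a heme-binding protein, by 0.70 ± 0.11 (SE). MT3, a metallothionein, was at 185 and 187 in the first pair against 965 and 1000.2 in the second, with 121 to 203 in PB1, and its call (log2 change 1.51 ± 0.56 SE, limma adjusted p = 0.045) was lost on the means of the pairs (0.19). HBA1, the α-globin of red cells, was at 0, 74.2, 307 and 91.4 in LPS + PB1 and 0.446, 0, 129 and 0.240 in PB1 and was not called (limma adjusted p = 0.20). Its level varied as much within a group as between groups. FTH1 (ferritin heavy chain) was at 3903, 3650, 8596 and 7748 in LPS + PB1 and 3575 to 4369 in PB1, with log2 changes of -0.03 and 1.05 in the 2 pairs, and was not called.

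Lysosomal and phagocytic genes showed 3 higher and 2 lower of 10 (50%, against 29.4% of all tested), led by C3 and CTSC. C3 reached 10 RPM in LPS + PB1 and not in PB1, and so had to differ. MFGE8, a bridge for the uptake of dying cells, rose from 571 to 760 RPM to 1588 to 1888 (log2 change 1.47 ± 0.10 SE), and ATP6V0D1, a subunit of the vacuolar proton pump, by 0.69 ± 0.13 (SE). Of 21 adhesion and cytoskeleton members, 4 rose and 3 fell (33.3%, near the 29.4% of all tested), and 2 and 2 of these were called on the means of the pairs, where ACTB, ACTN1 and CAPZB were lost. RHOB, a stress-induced small GTPase, rose from 52.6, 45.1, 68.2 and 70.7 to 382, 376, 448 and 397 (log2 change 2.78 ± 0.14 SE), and ITGA3 (integrin α3) fell from 342 to 459 to 132 to 237 (log2 change -1.17 ± 0.19 SE). ACTN1 (α-actinin) was at 2744 and 2459 in the first pair against 1272 and 1093 in the second, with 895 to 1210 in PB1. Its log2 change of 0.80 ± 0.28 (SE) was 1.52 and 0.08 in the pairs (limma adjusted p = 0.18 on their means). In the list of G-protein genes 3 rose and 1 fell of 8 (50%, against 29.4% of all tested). Of these, EDNRA and RGS2 reached 10 RPM in LPS + PB1 and not in PB1, and so had to differ. EDNRA, the endothelin receptor, went from 0.232 to 1.34 to 21.4 to 30.02 (log2 change 4.71 ± 0.34 SE). RGS2, a brake on G-protein signals, rose from 0.928 to 3.18 to 10.01 to 11.6, and GNAI1, an inhibitory G-protein subunit, from 23.9 to 33.1 to 60.5 to 66.3. PTGER2, a prostaglandin E2 receptor, fell from 70.2 to 91.9 to 25.7 to 35.1 (log2 change -1.46 ± 0.12 SE).

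Ribosomal protein and translation factor genes shifted little. Of 44 members, 6 fell and 1 rose (15.9%, under the background of 29.4%), but 38 had a negative log2 change, 34 of them in both pairs, and the median was -0.31 with TMM as with RLE scaling. RPS6 fell from 2057, 2055, 1719 and 1563 RPM to 1059, 1218, 1015 and 1226 (log2 change -0.71 ± 0.11 SE), and RPS3A and RPL9 by 0.76 and 0.74. Oxidative phosphorylation had 1 called member of 18 (5.6%, under the background of 29.4%), CYCS (cytochrome c), which rose by 0.83 ± 0.13 (SE). Cell cycle genes had 1 higher and 5 lower of 26 (23.1%, against 29.4% of all tested, median log2 change -0.12), and 1 and 3 of these were called on the means of the pairs. The mitotic genes CENPF, BUB1B and BUB1 fell by 0.68, 0.66 and 0.61, CDKN1B, an inhibitor of cyclin-dependent kinases, by 0.84, and CCNE1 (cyclin E1) rose by 1.21. BUB1B and BUB1 were not called there (limma adjusted p = 0.091 and 0.19), with log2 changes of -0.26 and 0.02 in the first pair and -1.05 and -1.23 in the second. No apoptosis gene of 3 was called.

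Some members differed widely between the first and the second pair of libraries. The 2 named called members with the widest gap, picked after their values were seen, were PODXL and AQP1, and EGR1 was also among the first. PODXL, the sialomucin podocalyxin, had 387 and 339 RPM in replicates 1 and 2 of LPS + PB1 and 2503 and 2261 in replicates 3 and 4, against 141 to 161 in PB1. Its log2 change of 2.66 ± 0.61 (SE, limma adjusted p = 0.0050) was 1.34 in the first pair and 3.98 in the second and was not called on the means of the pairs (0.065). EGR1, an immediate early transcription factor, was at 187, 174, 281 and 271 in LPS + PB1 and 170, 142, 65.4 and 64.4 in PB1, with log2 changes of 0.21 and 2.08. EGR1 in CTR was at 1205 and 1158 in the first pair against 70.5 and 87.6 in the second, so the pairs also stood apart without LPS or PB1. Over all 1148 called members, the fold change differed between pairs by more than 1.5-fold in 388, and in 1 member a pair pointed against the call.

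**Figure D4:**
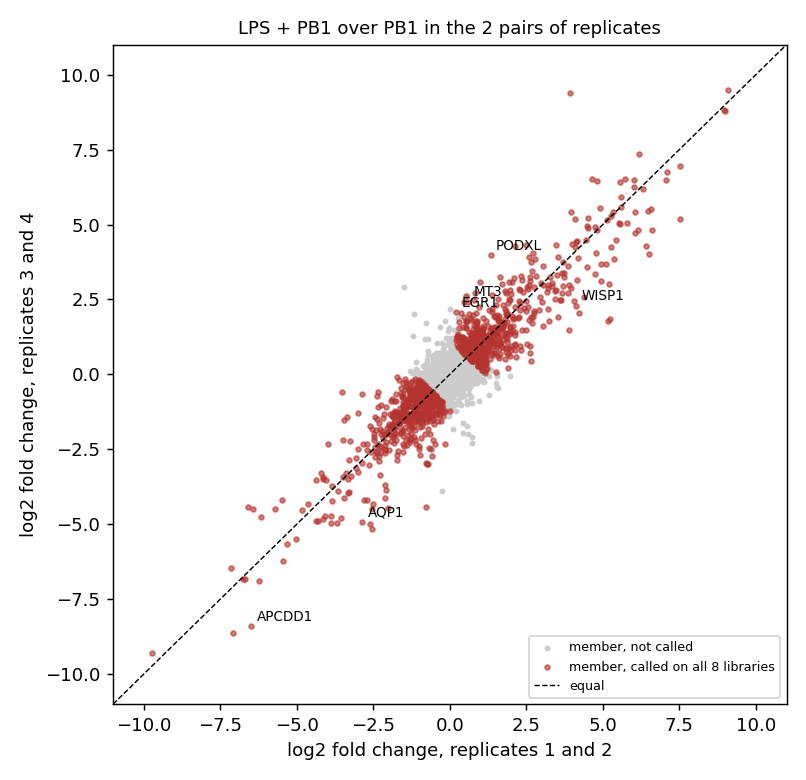
Log2 fold change of LPS + PB1 over PB1 in replicates 1 and 2 (horizontal) and in replicates 3 and 4 (vertical) for all 4145 members, with called members in red. Direction was the same in both pairs in 1147 of 1148 called members, while PODXL, AQP1 and EGR1 lie far from the dashed line of equal change. The pairs are parts of the libraries that gave the calls, so the shared direction was favoured by the choice.

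The response was then set beside that of cells without PB1, which shares no library with it. Of 4117 members tested in both, LPS called 1122 in PB1-treated cells and 590 in cells without PB1, where 16.8% of all transcripts tested were called. Both called 366, which is 32.6% of the first list and 62.0% of the second. Of these, 229 moved in the same direction (133 up and 96 down) and 137 in opposite directions. Across members, the log2 changes had a Pearson correlation of 0.28, and their SD was 1.07 with PB1 and 0.65 without, values taken across transcripts, which are not independent replicates. Members were chosen by their level in LPS + PB1 or PB1, so that some had to differ with PB1. Transcripts high only with LPS alone or in CTR were left out. These counts, overlaps, correlation and SDs were shaped by that choice and are a description alone. Over all transcripts tested, 29.4% were called with PB1, against the 16.8% without. The interaction, the LPS effect with PB1 minus that without, passed a limma adjusted p of 0.05 in 1878 of 4145 members (45.3%, against 44.9% of all 4650 tested) and in 916 of the 1148 called. On the means of the pairs it passed in 849 members (20.5%, against 20.6% of all tested) and in 617 of those called. Called members were picked by their difference of LPS + PB1 from PB1, which is part of the interaction. Both counts among them were thus raised by the choice.

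Some rises were called with PB1 and not without it. ID3 had 32.8 ± 3.61 RPM (SD, n = 4) in CTR and 48.8 ± 11.8 with LPS alone. That was a small rise under the fold limit (log2 change 0.54, limma adjusted p = 0.032). The interaction of ID3 was 5.72 ± 0.20 (SE, limma adjusted p = 3.1e-12). CCN2 was at 3939 ± 818 in CTR and 2294 ± 308 with LPS alone, so that LPS lowered it without PB1 (log2 change -0.77) and raised it with PB1 (interaction 4.80, limma adjusted p = 1.5e-11). The level of both in CTR lay above that in PB1, 6.05 ± 0.61 for ID3 and 466 ± 51.9 for CCN2. NFKBIZ was at 32.8 ± 5.34 in CTR, 39.6 ± 6.41 with LPS, 4.06 ± 1.51 with PB1 and 26.0 ± 2.58 with both, an interaction of 2.43 (limma adjusted p = 1.4e-05). These interactions were also called on the means of the pairs.

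C3 rose in both settings, and a difference between them was not called. It went from 21.3 ± 1.10 RPM in CTR to 880 ± 376 with LPS alone (log2 change 5.25), and the interaction of -0.57 ± 0.58 (SE) was not called (limma adjusted p = 0.46). MFGE8 also rose without PB1 (log2 change 1.74, interaction adjusted p = 0.25). SLC40A1 rose in both but by far more without PB1, from 3.81 ± 2.06 to 103 ± 43.4 (log2 change 4.71 against 1.19 with PB1, interaction -3.52, limma adjusted p = 8.8e-06). SFRP1 followed suit, from 230 ± 66.6 to 3143 ± 779 (log2 change 3.78 against 1.16).

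Opposite responses were seen for IFIH1, TLR3 and SELENOP1. IFIH1 rose with LPS alone, from 10.6 ± 0.23 to 22.9 ± 3.42 RPM, and fell with PB1 (interaction -2.65, limma adjusted p = 1.3e-07). TLR3 rose from 6.71 ± 1.39 to 17.8 ± 2.86 without PB1 and fell with it (interaction -2.26, limma adjusted p = 8.1e-07). SELENOP1 rose from 13.6 ± 1.68 to 83.8 ± 8.67 and fell with PB1 (interaction -4.74, limma adjusted p = 1.2e-07). All 3 interactions were also called on the means of the pairs. ZIC1 fell in both, but from 41.4 ± 4.71 to 0.664 ± 0.576 without PB1 and to 12.1 ± 1.22 with it (interaction 4.28). APOD, which encodes a lipid-binding secreted protein and was not a member, was at 8.44 ± 5.73 in LPS + PB1, 4.85 ± 2.13 in PB1 and 123 ± 10.9 with LPS alone. Of the genes that the study names, 10 of 42 were found by symbol and 9 of these were members.

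**Figure D5:**
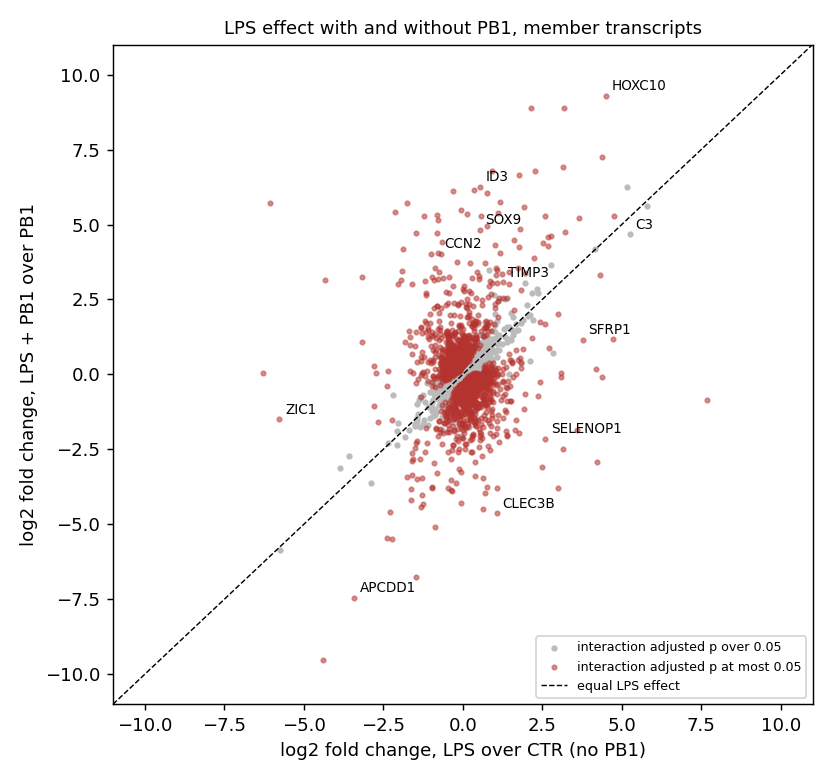
Log2 fold change after LPS with PB1 (vertical) against that without PB1 (horizontal) for the 4117 members tested in both, with red points where the interaction passed an adjusted p of 0.05. C3 lies near the dashed line of equal effect, ID3, CCN2 and SOX9 far above it and CLEC3B and SELENOP1 far below it.

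By level, the median SE of the log2 change was 0.17 in the 923 members under 30 RPM, 0.12 in the 1500 up to 100, 0.10 in the 1151 up to 300, 0.098 in the 423 up to 1000 and 0.12 in the 148 above. The shares called were 39.1%, 23.4%, 21.7%, 30.7% and 37.8% in the same order.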

How the data were processed

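Sequencing was single-read. Per the study's methods, the authors filtered reads, aligned them to GRCg7b with HISAT2 and counted them with HTSeq. The deposited values are a scaled signal and not counts. Each equals the reads plus 1, multiplied by a step particular to the library and rounded down, and this product gave every value exactly (100%). The numbers of reads, and the intervals and floors made from them, are thus inferred from that pattern. Dividing by the step gave 4173989 to 4414942 reads per library, which were scaled to TMM-normalized RPM (reads scaled to a common total) for printed levels and membership. Every library thus had more inferred reads than the average per sample that the study states. The table also holds fewer transcripts than the study reports its reads were mapped to. Log2 of the deposited values, scaled with own-code TMM factors, was fitted with limma 3.58.1 (R 4.3.3) after removal of low transcripts (about 10 reads in a library, 15 in all), 4 libraries against 4 or, for the interaction, all 16. SE is the moderated standard error.

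Of 1702 curated accessions 1697 matched a RefSeq symbol and none of 4790 predicted ones, so a gene's value may omit transcripts. Coordinates span the gene on GRCg7b. Members and gene lists were chosen with earlier results of these data known. Named genes were those the study names, the 8 largest rises and falls at 50 RPM or more without overlap, the 5 largest gains and losses, up to 6 called members per list and 4 accessions without a symbol. Counting intervals and floors cover counting error only. No strand setting is given in the sources used here, so overlapping genes may share reads. Python 3.11.15 was used for the summaries. Some results are not reported here.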

Additional observations from a re-analysis of the deposited data

Results flagged for a closer look

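In 34 of the named transcripts the effect of LPS differed between cells with and without PB1, by the limma interaction over all 16 libraries. Over all transcripts tested the interaction passed in 44.9%. Most of the named transcripts were chosen for a large difference of LPS + PB1 from PB1, which is part of the interaction. The count was thus raised by the choice and is a description alone. The difference in log2 change was positive, so that the effect was more positive with PB1, in these transcripts: HOXC10 4.78, ID3 5.72, ANKRD1 5.22, UCHL1 4.71, SOX9 4.28, RHOJ 3.28, CCN2 4.80, COL1A2 1.20, ACTB 1.40, SPARC 1.503, TGFBI 2.90, NFKBIZ 2.43, CCN3 0.52, GNAI1 0.81, TIMP3 1.82, XM_040670282.2 5.72 and XM_046912694.1 6.74. It was negative in these: APCDD1 -4.03, ST8SIA2 -5.27, CLEC3B -5.70, CTSC -3.09, AQP1 -3.56, NES -2.20, ACE -3.40, ITGB3 -2.94, COL6A2 -1.23, IGFBP4 -2.03, EEF1A1 -0.44, LOX -0.81, DCN -1.18, JUN -0.38, IFIH1 -2.65, XM_040686566.2 -5.11 and XM_046928513.1 -6.07. With the mean of each library pair as 1 sample, COL1A2, ACTB, SPARC, COL6A2, EEF1A1, LOX, DCN, JUN and CCN3 no longer passed (limma adjusted p from 0.055 for ACTB to 0.35 for EEF1A1).

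In 4 of 74 groups of 4 libraries, 1 library lay apart from the other 3, judged by its gap relative to the range of the group. Chance gives about 1 such group in 20 for continuous values, so the count is near that of chance. The rule also flags small differences, such as 1 read against none. HOXC10 in PB1 replicate 2 was at 0.227 RPM, which is 1 read, against none in the others. RHOJ in PB1 replicate 4 was at 5.51 (others 4.18 to 4.31), LOX in PB1 replicate 1 at 8288 (others 8072 to 8098), and XM_040670282.2 in PB1 replicate 1 at 0 (others 0.227 to 0.240).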

How the results depend on the processing

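Scaling with RLE factors called 1328 transcripts, 1 further read added to every value 1320, no filter on low values 1586 and all 16 libraries in 1 fit 1413, against 1327. Leaving out a library gave 1269 to 1378 transcripts and 1092 to 1194 members, and the interaction count stayed between 1896 and 2131, against 2090. Replicates 1 and 2 alone gave 1541 and replicates 3 and 4 alone 1489. Without the fold limit, 2234 transcripts passed (1119 higher, 1115 lower) and 2048 members, through the wider rule. On the means of the pairs, an alternative chosen after the data were seen for this result, the interaction count was 958, with fewer samples in the fit. A replicate block in the fit gave 1319 transcripts, 1152 members and 2145 interactions. The deviations of libraries with the same number correlated at -0.14 to 0.04, so the numbers do not pair the libraries. A member limit of 5 or 20 RPM gave 4385 or 3764 members. Of 38 named transcripts, none changed direction, and 590 of 608 values kept their side of the thresholds. edgeR and DESeq2 had been planned and were not run, because the deposited values are not counts.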
